A study of Mus musculus with 18 samples.

Results

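The genes described here encode cell adhesion molecules that join nerve cells, synapses and astrocytes. They were 3 neuroligins (Nlgn1, Nlgn2, Nlgn3), the neurexin Nrxn2, the leucine-rich repeat protein gene Lrrtm1, and 4 genes of the immunoglobulin family (Nrcam, Ncam1, Cadm1, Cadm2). They were taken by name, and all 9 were found among the 23924 genes read. Each passed the filter on low values of at least 1 FPKM in at least 6 libraries, where FPKM counts the fragments of a gene relative to its transcript length and the library's mapped fragments. The filter left 21745 genes for testing. In the mouse annotation Nlgn1 lies on chromosome 3, Lrrtm1 on 6, Ncam1 and Cadm1 on 9, Nlgn2 on 11, Nrcam on 12, Cadm2 on 16, Nrxn2 on 19 and Nlgn3 on the X chromosome.

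RNA came from astrocytes of the primary motor cortex (M1) of wild-type C57BL/6 mice, in a study of motor learning. Water-restricted mice were trained on a lever that, pushed past a threshold once a trial began, gave water. The naive group was untrained (6 libraries, 12 to 21 weeks of age), the novice group had 3 days of training (6 libraries, 11 to 13 weeks) and the expert group was fully trained (6 libraries, 13 to 15 weeks). Each group was labelled as 2 female and 4 male. The cells were named by the labels as astrocytes, and the sources used here do not say how they were isolated.

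Neurexins sit on the presynaptic membrane and bind neuroligins and LRRTM proteins on the postsynaptic side, so that a synapse is held and organised across the cleft. The same families are not restricted to neurons. Astrocytes make neuroligins, and mouse work has tied astrocytic neuroligins to astrocyte shape and to the formation of synapses. NrCAM is a cell adhesion molecule of astrocyte and neuron membranes that binds to copies of itself, NCAM1 carries polysialic acid and also binds to itself, and the CADM (SynCAM) proteins bind one another across the synaptic cleft.

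The libraries fell into 2 classes that the labels do not name. The mean FPKM over 1550 genes of families that brain cells do not normally use (olfactory, vomeronasal, taste and trace amine receptors and hair keratin-associated proteins) was 0.300 to 3.28 FPKM in 10 libraries and 4.65 to 6.67 FPKM in the other 8. The lower class held 4 naive, 2 novice and 4 expert libraries, and the higher class held 2 naive, 4 novice and 2 expert libraries. Expert 3 stood apart at 0.300 FPKM, with the next at 1.53 FPKM, and it had the most genes at 0 (5430, against 2257 to 4378 in the others). On the log2 scale the gap between expert 3 and the next library was the widest of all. The class boundary was the widest gap among the remaining libraries, and expert 3 was placed in the lower class. The 15 astrocyte markers summed to 1991 to 7660 FPKM in naive, 2015 to 5112 FPKM in novice and 2663 to 10010 FPKM in expert libraries, and none was at 0 in any library. The 15 neuron markers summed to 182 to 1100, 216 to 1539 and 240 to 1461 FPKM in the same order, and none was at 0. In the novice group 2 libraries, numbers 1 and 3, went against their labelled sex by Xist and Ddx3y. In such bulk RNA fewer cells of a type and less RNA per cell cannot be told apart.

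The 9 genes covered a wide range of levels. Comparing levels between genes rests on the deposited values being FPKM, which was assumed. Per transcript length, Ncam1 led with a mean of 64.4 FPKM over the 18 libraries, followed by Cadm1 at 44.9, Nrcam at 31.0, Nrxn2 at 20.4, Cadm2 at 18.9, Nlgn3 at 15.4, Nlgn2 at 7.86, Nlgn1 at 7.14 and Lrrtm1 at 2.73 FPKM. Ncam1 exceeded Cadm1 in 18 of 18 libraries, Cadm1 exceeded Nrcam in 16, Nrcam exceeded Nrxn2 in 18, and Nlgn3 exceeded Nlgn2 in 18. Some neighbours were not separated in level: Nrxn2 exceeded Cadm2 in 11 of 18 libraries and Nlgn2 exceeded Nlgn1 in 9 of 18. Cadm2 exceeded Nlgn3 in 15 and Nlgn1 exceeded Lrrtm1 in 17 of 18.

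**Figure D1:**
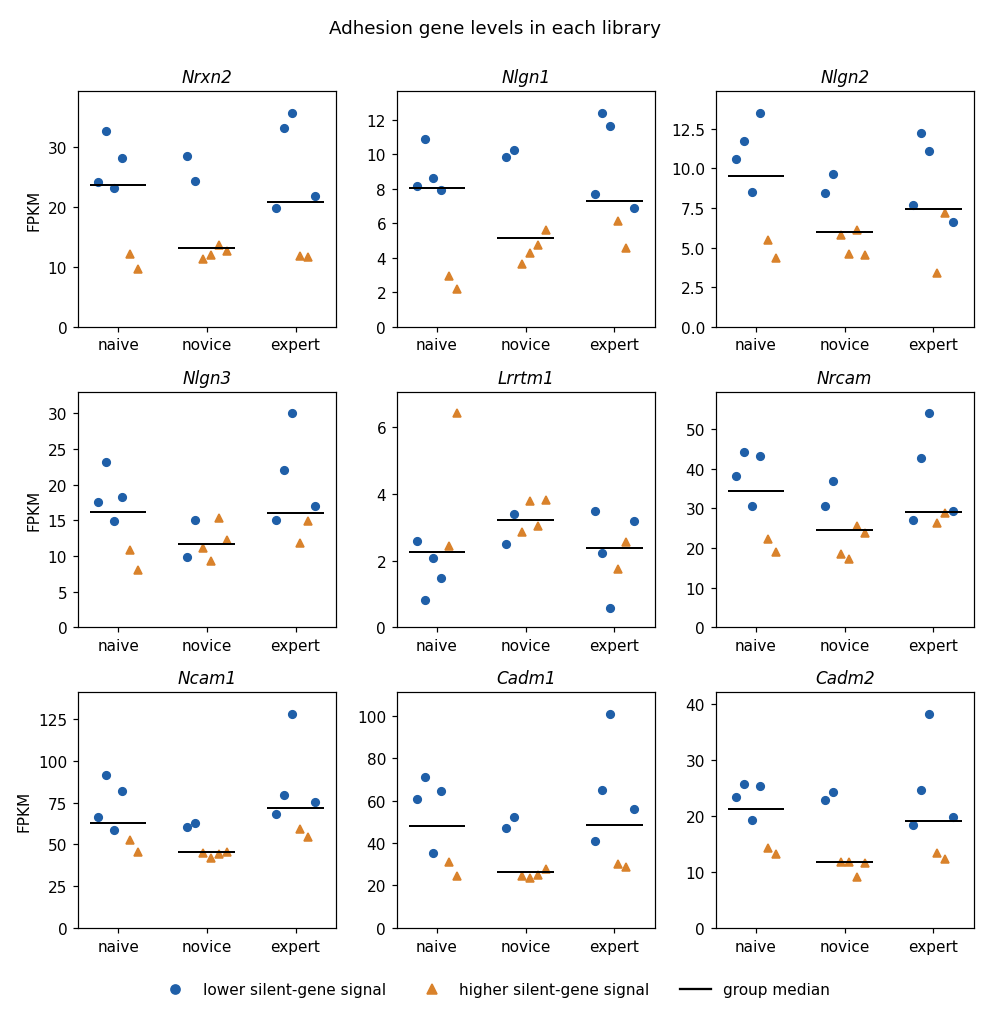
Level in FPKM (y axis, from 0) of the 9 adhesion genes in each of the 6 naive, 6 novice and 6 expert libraries, drawn in replicate order, with the group median as a bar. Circles are the 10 libraries of lower signal from normally silent genes and triangles the 8 of higher signal; the circles lie above the triangles for Nrxn2, Nlgn1, Cadm1 and Cadm2.

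On the presynaptic side, Nrxn2 had a lowest, median and highest level of 9.65, 23.6 and 32.7 FPKM in naive, 11.3, 13.2 and 28.5 FPKM in novice and 11.6, 20.8 and 35.7 FPKM in expert libraries. The ranges of all 3 groups overlapped, and the 18 libraries lay either between 9.65 and 13.6 FPKM or between 19.9 and 35.7 FPKM. Its paralog Nrxn3, named after its values were seen, averaged 7.77 FPKM. By annotated gene span Nrxn2 overlaps Slc22a12, which lies on the opposite strand and stood at 1.66 to 13.2 FPKM. The sources used here do not say whether strand was used in counting.

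Of the neuroligins, the postsynaptic partners of neurexins, Nlgn3 was the most abundant. Its lowest, median and highest levels were 8.09, 16.2 and 23.2 FPKM in naive, 9.25, 11.7 and 15.3 FPKM in novice and 11.8, 16.1 and 30.1 FPKM in expert libraries. The highest novice library lay below the naive and expert medians, although the ranges overlapped. Nlgn2, which in neurons is the neuroligin of inhibitory synapses, had 4.34, 9.55 and 13.5 FPKM in naive, 4.51, 5.95 and 9.65 FPKM in novice and 3.39, 7.44 and 12.2 FPKM in expert libraries. Nlgn1, known in neurons from excitatory synapses, had 2.19, 8.06 and 10.9 FPKM in naive, 3.67, 5.17 and 10.3 FPKM in novice and 4.58, 7.30 and 12.4 FPKM in expert libraries. For both genes the ranges of the 3 groups overlapped.

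Lrrtm1, a postsynaptic partner of neurexins at excitatory synapses, was the least abundant. It had 0.829, 2.27 and 6.42 FPKM in naive, 2.50, 3.22 and 3.82 FPKM in novice and 0.585, 2.39 and 3.49 FPKM in expert libraries. The novice libraries lay close together, and the naive spread rested on naive 6, whose 6.42 FPKM was far above the next naive library at 2.60 FPKM. Its paralogs Lrrtm2, Lrrtm3 and Lrrtm4, named after their values were seen, were at similarly low means of 2.68, 5.09 and 4.49 FPKM. Lrrtm1 overlaps Ctnna2, which lies on the opposite strand and stood at 5.24 to 23.2 FPKM. The part of Ctnna2 in the Lrrtm1 values was not tested. Ncam1 and Cadm2 each overlap 1 tested locus without a gene name of its own on the opposite strand as well.

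Ncam1, the neural cell adhesion molecule, had 45.4, 62.5 and 91.2 FPKM in naive, 41.6, 45.2 and 62.8 FPKM in novice and 54.5, 71.8 and 128 FPKM in expert libraries. The novice libraries were low, with 3 of 6 below the lowest naive library, and 4 of 6 expert libraries were above the highest novice one. Those 3 novice libraries were of the higher silent-gene class and those 4 expert libraries of the lower. Nrcam had 18.9, 34.4 and 44.1 FPKM in naive, 17.2, 24.7 and 36.9 FPKM in novice and 26.3, 29.1 and 54.0 FPKM in expert libraries. Ncam2, the paralog of Ncam1 and named after its values were seen, averaged 13.4 FPKM.

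Cadm1 had 24.4, 48.0 and 71.3 FPKM in naive, 23.6, 26.2 and 52.3 FPKM in novice and 28.5, 48.4 and 101 FPKM in expert libraries. Cadm2 had 13.2, 21.3 and 25.8 FPKM in naive, 9.04, 11.8 and 24.4 FPKM in novice and 12.4, 19.2 and 38.3 FPKM in expert libraries. Of the novice libraries 4 had less Cadm2 than any naive library. These 4 were the novice libraries with the higher signal from normally silent genes. In the lower class Cadm2 averaged 23.7 FPKM in novice and 23.5 FPKM in naive libraries, and in the higher class 11.1 and 13.75 FPKM. The remaining family members Cadm3 and Cadm4, named after their values were seen, averaged 7.03 and 32.6 FPKM. Cadm2 made up 26.2% to 35.3% of the sum of Cadm1 and Cadm2, with a median of 30.4%.

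Promoters are shown for Nrcam, the most CG-rich of those matched, and for Lrrtm1, the scarcest transcript and the one whose levels went the other way from the rest, with each CG pair in capitals. They run 5′ to 3′ on the gene's strand from 250 bases before to 50 bases after the start, in RefSeq's mouse build GRCm38.p6. Nrcam is at chr12:44328635-44328934 and Lrrtm1 at chr6:77242227-77242526, both on the plus strand.
Nrcam: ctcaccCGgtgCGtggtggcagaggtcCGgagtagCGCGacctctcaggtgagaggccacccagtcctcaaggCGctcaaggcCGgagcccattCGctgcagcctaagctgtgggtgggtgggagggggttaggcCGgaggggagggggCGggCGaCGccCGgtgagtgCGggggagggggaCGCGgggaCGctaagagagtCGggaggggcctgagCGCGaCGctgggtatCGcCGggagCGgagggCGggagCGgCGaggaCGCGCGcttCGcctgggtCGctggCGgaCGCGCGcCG
Lrrtm1: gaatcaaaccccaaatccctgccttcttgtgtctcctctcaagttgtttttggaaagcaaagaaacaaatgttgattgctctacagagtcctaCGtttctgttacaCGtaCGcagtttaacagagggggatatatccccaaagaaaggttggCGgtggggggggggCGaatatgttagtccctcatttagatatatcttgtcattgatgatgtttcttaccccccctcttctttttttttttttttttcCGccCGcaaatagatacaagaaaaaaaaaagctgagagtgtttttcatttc
The Nrcam window held 37 CG pairs, more than 94.4% of the 32851 promoters in the RefSeq table, and the Lrrtm1 window held 7, which was also the median of the table. Entries were matched for 5 of the 9 genes. Nlgn2 had 26 pairs, Cadm2 had 15, and the 2 starts of Nlgn1 had 14 and 6. The motif GGGCGG, searched on both strands, was found for Nrcam, Lrrtm1, Nlgn2 and Cadm2 and at neither start of Nlgn1, and 35.7% of all promoters hold it. The motif TATAAA, present in 13.6% of promoters on either strand, was found in none of these windows. The counts describe these windows only.

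After 3 days of training the adhesion genes had mostly lower levels than in naive mice, but none passed the test. The neuroligins, Nrxn2, Nrcam, Ncam1, Cadm1 and Cadm2 had negative fold changes in novice against naive libraries and Lrrtm1 a positive one, while Nlgn1 was at 0.10 under median ratio scaling and all were positive relative to astrocyte markers. On the scale of log2(FPKM + 1), which understates the change of low genes, the median of the 9 was -0.34, against 0.07 over all genes tested and -0.09 over the 9331 genes of mean 5 to 100 FPKM. At that abundance 60.4% of genes were lower, against 43.1% of all genes tested. The limma test, adjusted by the method of Benjamini and Hochberg over all 21745 genes with a threshold of 0.05, called 0 of the 9 members and 0% of all genes. At an unadjusted p under 0.05 it counted 0 members, where 4.6% of all genes passed. With array weights, which give outlying libraries less say, the median was -0.56 and 7 members had an unadjusted p under 0.05, where 24.8% of all genes did, with 0 called after adjustment. The members other than Lrrtm1 ran together over the 18 libraries (Pearson r 0.70 to 0.96 between pairs). Counts of members are therefore not counts of independent genes.

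For single members, Cadm1 averaged 33.4 ± 12.9 FPKM in novice and 47.9 ± 19.9 FPKM in naive libraries (SD, n = 6 each). Its log2 fold change was -0.48 (SE 0.34, limma adjusted p = 0.89). Cadm2 averaged 15.3 ± 6.60 FPKM in novice and 20.2 ± 5.54 FPKM in naive libraries, a log2 fold change of -0.43 (SE 0.29). Nlgn1 was the member with the smallest difference, at 6.39 ± 2.90 FPKM in novice and 6.80 ± 3.46 FPKM in naive libraries and a log2 fold change of -0.01 (SE 0.34, 95% interval -0.72 to 0.70). The interval of every member included 0. The log2 fold changes of Nlgn2 (-0.37, SE 0.29), Nlgn3 (-0.27, SE 0.25), Nrxn2 (-0.30, SE 0.34), Nrcam (-0.34, SE 0.26) and Ncam1 (-0.37, SE 0.24) lay between these. Lrrtm1 averaged 3.23 ± 0.530 FPKM in novice and 2.64 ± 1.96 FPKM in naive libraries, with a log2 fold change of 0.35 (SE 0.30).

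Between expert and naive libraries the fold changes were small and of mixed sign. Of the 9 genes 7 had a positive and 2 (Nlgn2 and Lrrtm1) a negative fold change in expert against naive libraries, with Nrxn2 and Cadm2 negative under median ratio scaling, Lrrtm1 positive under quantile normalization and 6 of 9 negative relative to astrocyte markers. In the values as deposited their median was 0.09, against -0.05 over all genes tested and 0.02 at 5 to 100 FPKM. At that abundance 46.6% of genes were lower in expert, against 56.1% of all genes tested. The limma test called 0 members and 0% of all genes after adjustment. At an unadjusted p under 0.05 it counted 0 members, where 2.86% of all genes passed. The largest fold change was that of Nlgn1, at 8.23 ± 3.13 FPKM in expert and 6.80 ± 3.46 FPKM in naive libraries (log2 fold change 0.33, SE 0.34, limma adjusted p = 0.9996), and the smallest that of Cadm2 (0.01, SE 0.29, 95% interval -0.61 to 0.62). Without expert 3, which held the highest level of 6 of the 9 genes and the lowest of Lrrtm1, 5 members were lower and 4 higher, with a median of -0.04. The median was likewise -0.04 without naive 6, -0.004 without naive 5 and 0.02 without expert 2. It was 0.19 without naive 2, 0.18 without naive 4, 0.18 without expert 4, 0.19 without expert 5, 0.15 without naive 1 and 0.15 without expert 1. It was 0.001 with array weights.

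Between expert and novice libraries the adhesion genes were mostly higher in expert. Of the 9 genes 8 were higher in expert, and all 9 were lower relative to astrocyte markers. In the values as deposited their median log2 fold change was 0.43, against -0.14 over all genes tested and 0.15 at 5 to 100 FPKM. At that abundance 37.7% of genes were lower in expert, so that most were higher there too, against 59.6% lower of all genes tested. Ncam1 averaged 77.4 ± 26.6 FPKM in expert and 49.9 ± 9.19 FPKM in novice libraries (SD, n = 6 each). Its log2 fold change was 0.58 (SE 0.24, 95% interval 0.09 to 1.08, limma adjusted p = 0.45). Cadm1 averaged 53.6 ± 27.2 FPKM in expert and 33.4 ± 12.9 FPKM in novice libraries (log2 fold change 0.60, SE 0.34), and Nlgn3 averaged 18.5 ± 6.61 FPKM in expert and 12.2 ± 2.55 FPKM in novice libraries (0.53, SE 0.25). Lrrtm1 had the reverse sign, at 2.30 ± 1.05 FPKM in expert and 3.23 ± 0.530 FPKM in novice libraries (-0.43, SE 0.30). The remaining fold changes were 0.34 for Nlgn1, 0.23 for Nlgn2, 0.34 for Nrxn2, 0.43 for Nrcam and 0.44 for Cadm2, each with an interval that included 0. These medians depended on the scaling. In expert against novice libraries the median of all genes was -0.25 under median ratio scaling and 0.03 under quantile normalization. The members had 0.26 and 0.36 in the same order.

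None of the 9 passed adjustment in expert against novice libraries, as 0% of all genes did by limma. At an unadjusted p under 0.05 limma counted 1 member, Ncam1 (unadjusted p = 0.023), where 10.9% of all genes passed, so that 1 of 9 is near the background. With array weights 4 members passed at that p, where 27.97% of all genes did, and the median was 0.50. Age was partly mixed with training, at 11 to 13 weeks in novice and 13 to 15 weeks in expert libraries. With age as a covariate 0 members passed at that p, where 6.39% of all genes did, and the median was 0.35. Ncam1 then had 0.49 (SE 0.25, limma unadjusted p = 0.070). Without expert 3 the median of the 9 genes was 0.25 and the log2 fold change of Ncam1 was 0.43 (SE 0.22, limma adjusted p = 0.85), and 0 members passed at an unadjusted p under 0.05. Without novice 1 and 3, the libraries at odds with their labelled sex, the median was 0.42 and that of Ncam1 was 0.63 (SE 0.28). The moderated F test of any difference among the 3 groups called 0% of genes after adjustment, and 5.53% at an unadjusted p under 0.05; for the 9 genes the limma adjusted p ran between 0.754 and 0.848. The comparisons share libraries: each group enters a pair of them.

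**Figure D2:**
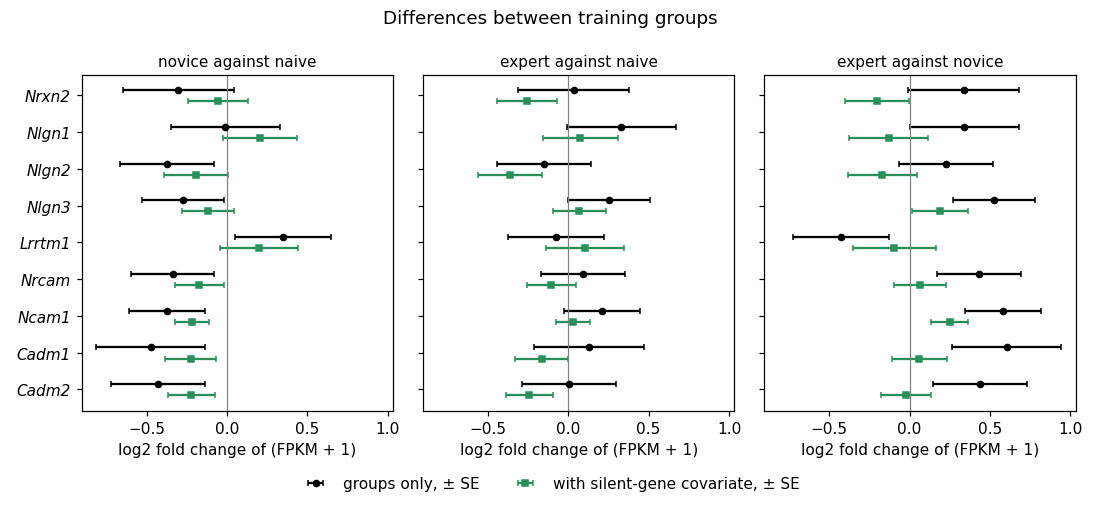
Log2 fold change of FPKM + 1 (x axis) with its standard error for the 9 adhesion genes (rows) in the 3 comparisons between groups of 6 libraries. Black points are the limma fit with groups only and green squares the same with the silent-gene signal as a covariate, where the standard errors are smaller and the expert-against-novice median is -0.02 in place of 0.43.

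The levels moved with the signal from normally silent genes. For Nrxn2, Nlgn1, Cadm1 and Cadm2 each of the 10 lower-signal libraries lay above each of the 8 higher-signal ones, as was the case for 5.89% of all genes tested and 12.4% of those of mean 5 to 100 FPKM. These classes were found in the values, so that the counts carry no test. Over the 2 classes of libraries the ratio of mean FPKM, lower over higher, was 2.29 for Nrxn2, 2.21 for both Nlgn1 and Cadm1, 1.99 for Cadm2, 1.93 for Nlgn2, 1.66 for Nrcam, 1.59 for Ncam1 and 1.57 for Nlgn3. Lrrtm1 went the other way at 0.672. In the 8 higher-signal libraries it averaged 3.33 FPKM, where the silent genes had means of 4.65 to 6.67 FPKM and medians of 1.91 to 3.07 FPKM. Nlgn1 at 2.19 to 6.16 FPKM and Nlgn2 at 3.39 to 7.21 FPKM were also near that signal there. The part of this background in the levels of these low genes was not tested. The median ratio of the 9 genes was 1.93, beside 2.36 for the 15 astrocyte markers, 2.64 for the 15 neuron markers and 1.24 for all genes of mean 5 to 100 FPKM, of which 63.8% were higher in the lower class. The FPKM summed over all genes read also differed, at 840400 to 2265000 in lower-class and 669900 to 900000 in higher-class libraries. The part of these library totals in the ratios was not tested. With 4 of 6 novice libraries in the higher class and 4 of 6 in the lower class in each other group, class and training are partly mixed.

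**Figure D3:**
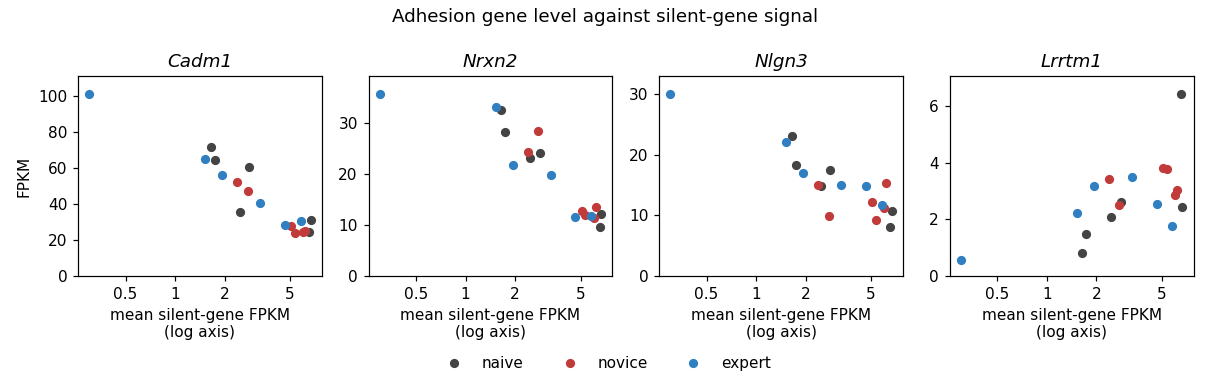
Level in FPKM (y axis, from 0) of Cadm1, Nrxn2, Nlgn3 and Lrrtm1 against the mean FPKM of 1550 normally silent genes (x axis, logarithmic) in 18 libraries, coloured by group. Cadm1, Nrxn2 and Nlgn3 are lower where the silent-gene signal is higher, Lrrtm1 runs the other way, and the leftmost point is expert 3 at 0.300 FPKM.

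The fit was repeated with the silent-gene signal as a covariate. The median log2 fold change was -0.17 in novice against naive (7 lower, 2 higher), -0.11 in expert against naive (5 lower, 4 higher) and -0.02 in expert against novice libraries (5 lower, 4 higher). In the 10 lower-signal libraries alone the medians were -0.17 in novice against naive, 0.08 in expert against naive and 0.04 in expert against novice, and in the 8 higher-signal libraries alone they were 0.03, 0.10 and 0.19 in the same order. Ncam1 had 0.25 (SE 0.11, unadjusted p = 0.041, limma adjusted p = 0.98) in expert against novice libraries under that covariate. Within the lower class Ncam1 averaged 87.8 FPKM in 4 expert libraries, among them expert 3 at 128 FPKM, and 61.6 FPKM in 2 novice libraries. Within the higher class it averaged 56.8 FPKM in 2 expert and 44.1 FPKM in 4 novice libraries. In both classes every expert library lay above every novice one, which was true of 1 of the 9 members and of 1.08% of all genes tested. This count was made after the values were seen and carries no test.

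Within-class means are given here for Nlgn3, Cadm1, Nrxn2 and Nlgn1. The lower-class expert libraries include expert 3, at 30.1 FPKM for Nlgn3, 101 FPKM for Cadm1, 35.7 FPKM for Nrxn2 and 11.6 FPKM for Nlgn1. Nlgn3 averaged 21.1 FPKM in expert and 12.5 FPKM in novice libraries of the lower class, and 13.3 FPKM in expert and 12.0 FPKM in novice libraries of the higher class. Cadm1 averaged 65.6 FPKM in expert and 49.8 FPKM in novice libraries of the lower class, and 29.4 FPKM in expert and 25.1 FPKM in novice libraries of the higher class. Nrxn2 averaged 27.7 FPKM in expert and 26.4 FPKM in novice libraries of the lower, and 11.7 FPKM in expert and 12.4 FPKM in novice libraries of the higher. Nlgn1 averaged 8.92 FPKM in naive, 10.04 FPKM in novice and 9.67 FPKM in expert libraries of the lower class. In the higher class its means were 2.56 FPKM in naive, 4.57 FPKM in novice and 5.37 FPKM in expert libraries.

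Nlgn3 was the main neuroligin transcript in every library. It supplied 35.1% to 58.5% of the summed neuroligin FPKM, with a median of 52.6%, against 15.9% to 34.0% for Nlgn2 and 15.0% to 34.9% for Nlgn1. The share of Nlgn2 was 22.8% ± 4.18 in expert and 29.0% ± 2.91 in naive libraries (SD, n = 6 each), a difference of -6.12 percentage points. The shares of the neuroligins and of Cadm2 were compared between the groups within a family of 15 tests chosen after the values were seen. The Nlgn2 share in expert against naive libraries had the smallest p of these, 0.013 in an exact two-sided permutation test over 924 splits and 0.195 after adjustment over the 15. Expert libraries ranged between 15.9% and 27.01% and naive ones between 25.6% and 34.0%, so the ranges overlapped. The lowest share was that of expert 4, where Nlgn2 stood at 3.39 FPKM and the silent genes averaged 5.80 FPKM. The part of that background in the shares was not tested. Within the lower class the share was 23.5% in expert and 28.8% in naive libraries, and within the higher class 21.5% in expert and 29.2% in naive libraries. The other tests of these shares had an exact p of 0.113 or more.

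**Figure D4:**
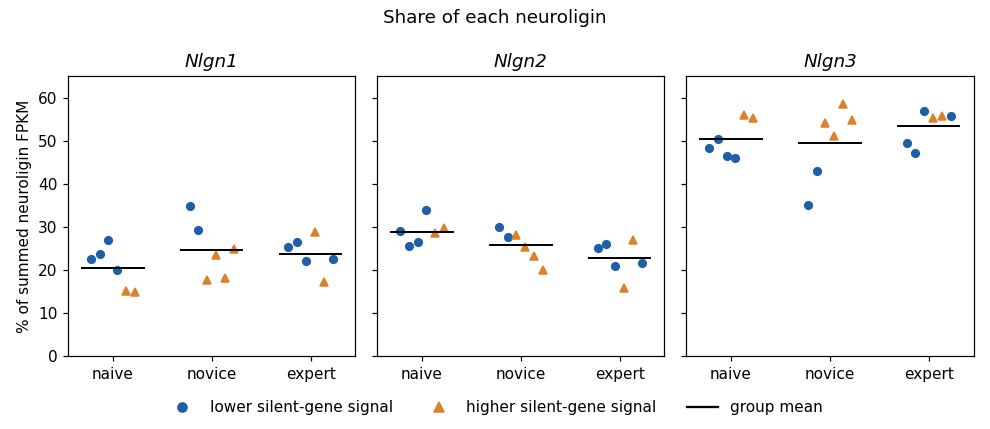
Share of each neuroligin in the summed FPKM of Nlgn1, Nlgn2 and Nlgn3 (y axis, %) in each of the 6 naive, 6 novice and 6 expert libraries, with group means as bars and the silent-gene class as the marker. Nlgn3 supplies the most in every library, and the Nlgn2 mean is 22.8% in expert and 29.0% in naive libraries with overlapping ranges.

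Related genes of 4 lists were set beside the members, and none was called by limma in any comparison. At an unadjusted p under 0.05, in the order of the lists below, it counted 1, 0, 0 and 0 genes in novice against naive, 1, 0, 0 and 0 in expert against naive and 2, 2, 3 and 0 in expert against novice libraries. Over all genes tested the share at that p was 4.6%, 2.86% and 10.9% in the same order of comparisons. Of all genes of mean 5 to 100 FPKM, 60.4% were lower in novice than in naive and 37.7% lower in expert than in novice libraries. Values in parentheses are log2 fold changes. Among the 20 neurexin and neuroligin partners, 10 were higher and 10 lower in novice against naive libraries (median log2 fold change -0.02) and 9 higher and 11 lower in expert against novice libraries (-0.18). Abundant genes of the list were the calsyntenin gene Clstn1 and the dystroglycan gene Dag1. Clstn1 averaged 51.5 ± 19.6 FPKM in expert and 41.3 ± 16.1 FPKM in novice libraries (0.29, SE 0.37), and Dag1 averaged 26.6 ± 11.9 FPKM in expert and 16.6 ± 1.40 FPKM in novice libraries (0.54, SE 0.25).

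Of the 19 other immunoglobulin family adhesion genes, 13 were lower in novice than in naive libraries (median -0.07) and 13 were higher in expert than in novice libraries (0.20). Hepacam, which encodes the astrocyte adhesion protein GlialCAM, averaged 93.1 ± 45.1 FPKM in expert and 50.01 ± 17.2 FPKM in novice libraries (0.82, SE 0.32, limma adjusted p = 0.45). Lsamp, of the same family as the neurotrimin gene Ntm, averaged 54.3 ± 21.2 FPKM in expert and 28.7 ± 12.5 FPKM in novice libraries (0.91, SE 0.35, limma adjusted p = 0.45), and Ntm itself averaged 110 ± 49.4 FPKM in expert and 82.8 ± 50.3 FPKM in novice libraries (0.46, SE 0.45).

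Of the 19 other synaptic organizers 13 were lower in novice than in naive libraries (median -0.06), and 9 were higher and 10 lower in expert against novice libraries (-0.02). Lrrc4b, which encodes a netrin-G ligand family protein, averaged 28.9 ± 11.6 FPKM in expert and 16.6 ± 7.42 FPKM in novice libraries (0.78, SE 0.33). The receptor phosphatase gene Ptprs had a log2 fold change of 0.44 (SE 0.32) and Slitrk2 of 0.52 (SE 0.30) in the same comparison. Of the 19 cytoplasmic scaffold partners 17 were lower in novice than in naive libraries (median -0.10) and 13 higher in expert than in novice libraries (0.23). Ank2, an ankyrin that anchors adhesion molecules to the membrane skeleton, averaged 110 ± 48.6 FPKM in expert and 69.1 ± 35.0 FPKM in novice libraries (0.69, SE 0.38). Dlg4 and Shank1, scaffold genes of the excitatory postsynapse, had log2 fold changes of 0.33 (SE 0.65) and 0.29 (SE 0.69). The medians of the 4 lists in expert against naive libraries were 0.00, 0.10, -0.08 and -0.05, in the order given here.

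The astrocyte markers had larger median fold changes than the adhesion genes. All 15 were lower in novice than in naive libraries (median log2 fold change -0.55) and all 15 were higher in expert than in novice libraries (0.77), with 0 called by limma and 0 and 7 at an unadjusted p under 0.05. Of all genes tested, 4.6% passed at that p in novice against naive, 2.86% in expert against naive and 10.9% in expert against novice libraries. Relative to the summed FPKM of those markers all 9 adhesion genes were higher in novice than in naive libraries (0.11 to 0.94) and lower in expert than in novice libraries (-1.21 to -0.18), and again none was called. On that scale the median of all genes was 0.66 in novice against naive and -0.92 in expert against novice libraries. The 10 endothelial markers were all higher in expert than in naive (median 0.59) and in expert than in novice libraries (0.53), with 0 called by limma and 6 and 5 at an unadjusted p under 0.05. The 9 pericyte and smooth muscle markers were all higher in expert than in naive (0.45, 3 at an unadjusted p under 0.05), and 8 of them were higher in expert than in novice libraries (0.33). Of the 8 oligodendrocyte precursor markers 7 were higher in expert than in novice libraries (0.45, 4 at an unadjusted p under 0.05) and 7 in expert than in naive (0.31). Of the 10 oligodendrocyte markers 9 were lower in expert than in naive libraries (-0.24), and of the 10 microglia markers 6 were lower in expert than in novice libraries (-0.36). The 15 neuron markers had 12 lower in novice than in naive (median -0.18), 14 lower in expert than in naive (-0.21) and 8 lower in expert than in novice libraries (-0.02). The part of cell content in the differences of the adhesion genes was not tested.

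The genes whose log2(FPKM + 1) ran most alike with each member over the 18 libraries were taken from about 8908 genes of mean 5 FPKM or more. Cadm1 ran with Ttyh1, a gene of the tweety membrane protein family (Pearson r 0.985), Ncam1 with Bcan, which encodes the brain matrix proteoglycan brevican (0.98), and Nrxn2 with Mgll, the gene of monoacylglycerol lipase (0.97). Cadm2 ran with Rtn3 (0.97), Nlgn1 with Lasp1 (0.95), Nrcam with the synaptotagmin gene Syt11 (0.95), Nlgn2 with the sorting nexin gene Snx5 (0.94), Nlgn3 with Tmed10 (0.94) and Lrrtm1 with Orc4, of the origin recognition complex (0.83). These values describe the libraries, which differ in silent-gene class and whose depth is not known. Within the 10 lower-signal libraries they ran between 0.81 (Nlgn1 with Lasp1) and 0.99 (Ncam1 with Bcan). Within the 8 higher-signal libraries they were lower for several pairs: 0.41 for Nrxn2 with Mgll, 0.48 for Cadm2 with Rtn3 and 0.55 for Lrrtm1 with Orc4. The other 6 pairs had 0.71 to 0.91 there.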

How the data were processed

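Stranded total RNA libraries of 18 astrocyte samples were sequenced on an Illumina instrument, per the labels' protocols. TopHat, Cufflinks and mouse build mm9 are named in the submitters' processing notes, and the sources used here give no versions, options or annotation. The deposited table holds normalized values per gene and library, made by the authors and taken here as FPKM values. Its title calls them normalized counts, and FPKM was assumed because the values behave as such. The sources used here do not say whether further scaling was applied. Comparisons of level between genes, including the shares, rest on this assumption. Read totals are not known, so no counting intervals were given. The number of genes at 0 (2257 to 5430 per library) is given in their place but does not measure depth alone. It was 2669 to 5430 in the lower and 2257 to 3337 in the higher silent-gene class. Of 23951 entries, 27 with names turned into dates were left out.

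The 21745 genes that reached 1 FPKM in 6 or more libraries were fitted as log2(FPKM + 1) with limma 3.58.1 in R 4.3.3 (trend, 1 mean per group, 18 libraries together), two-sided and adjusted over all of them (Benjamini and Hochberg, threshold 0.05). The fit was tried on simulated data with independent genes and changes larger than those of any member. That trial does not show how the test performs with correlated genes, classes of libraries or small changes. Fold changes are of the group named first over the other. Shares were compared by exact permutation tests, which were added after the values were seen. Nothing in the labels ties a library to an animal of its own, so p-values measure the spread between libraries.

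The members, the lists of related genes and the markers were chosen with earlier results of these data known. All 9 members are named, with the 3 most abundant genes of each related list and the gene most alike to each member; predicted loci were left out. A gene that this rule names, and the 3 tests of a share that needs it, are not reported here. Other family members were named after their values were seen. Pseudocounts, filters, scalings, covariates, array weights, a block and left-out libraries were tried as alternatives. Chromosomes, strands and overlaps of gene spans are from the GENCODE mouse annotation and promoter windows from RefSeq, neither on the authors' build.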

Additional observations from a re-analysis of the deposited data

Results flagged for a closer look

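Among the 27 sets of 6 libraries (9 genes in 3 groups) examined for a library far from the others, 2 stood out by the gap to the nearest library as a share of the whole range, above a critical value of 0.625. Chance marks about 1 in 20 such sets. Ncam1 in expert 3 was 128.1 FPKM, with the nearest expert library at 79.3 FPKM and a gap of 0.663 of the range. Expert 3 was also the library with the lowest silent-gene signal (0.300 FPKM) and the most genes at 0 (5430), and it held the highest level of 6 of the 9 genes; the part of these in its Ncam1 value was not tested. Lrrtm1 in naive 6 was 6.418 FPKM, with the nearest naive library at 2.6 FPKM and a gap of 0.683 of the range. Naive 6 belonged to the higher silent-gene class, and the part of that in its Lrrtm1 value was not tested. Without naive 6 the log2 fold change of Lrrtm1 in expert against naive libraries was 0.16, against -0.08 with it.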

How the results depend on the processing

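The 9 genes were recomputed under 35 settings, of which 18 each left out 1 library, and no member was called under any (smallest limma adjusted p 0.11, in expert against novice with array weights). No gene was called under any of these settings, except in the 8 higher-signal libraries alone, where 3 genes were called in novice against naive, 4 in expert against naive, 5 in expert against novice and 6 by the F test, none of them members; the cause was not tested. Sign changes concerned differences below the threshold, and the values that follow are log2 fold changes. With a pseudocount of 0.1 the signs changed in novice against naive Nlgn1 0.011. With median ratio scaling the signs changed in novice against naive Nlgn1 0.095, and in expert against naive Nrxn2 -0.025, Cadm2 -0.053. With the silent-gene signal as a covariate the signs changed in novice against naive Nlgn1 0.20, and in expert against naive Nrxn2 -0.26, Nrcam -0.11, Cadm1 -0.17, Cadm2 -0.24, Lrrtm1 0.11, and in expert against novice Nlgn1 -0.13, Nlgn2 -0.17, Nrxn2 -0.20, Cadm2 -0.021. With age as a covariate the signs changed in novice against naive Nlgn1 0.12, Lrrtm1 -0.013. Relative to the astrocyte markers the signs changed in novice against naive Nlgn1 0.58, Nlgn2 0.21, Nlgn3 0.31, Nrxn2 0.28, Nrcam 0.25, Ncam1 0.21, Cadm1 0.11, Cadm2 0.15, and in expert against naive Nrxn2 -0.16, Nrcam -0.11, Cadm1 -0.068, Cadm2 -0.19, and in expert against novice Nlgn1 -0.44, Nlgn2 -0.56, Nlgn3 -0.26, Nrxn2 -0.45, Nrcam -0.35, Ncam1 -0.20, Cadm1 -0.18, Cadm2 -0.35. In the lower-signal libraries alone the signs changed in novice against naive Nlgn1 0.16, Cadm2 0.019, and in expert against naive Nrcam -0.066, Lrrtm1 0.23, and in expert against novice Nlgn1 -0.088. In the higher-signal libraries alone the signs changed in novice against naive Nlgn1 0.64, Nlgn2 0.074, Nlgn3 0.31, Nrxn2 0.17, Nrcam 0.029, Lrrtm1 -0.22, and in expert against naive Nlgn2 0.025, Cadm2 -0.093, and in expert against novice Nlgn2 -0.049, Nrxn2 -0.075. With the silent-gene class as a covariate the signs changed in novice against naive Nlgn1 0.34, Nrxn2 0.074, and in expert against novice Nlgn1 -0.016, Nlgn2 -0.049, Nrxn2 -0.041. With array weights the signs changed in expert against naive Nrxn2 -0.12, Nrcam -0.12, Cadm2 -0.12, Lrrtm1 0.25. With quantile normalization the signs changed in expert against naive Lrrtm1 0.015. Leaving out 1 library at a time, the sign changed in expert against naive for Cadm1 (-0.079 to 0.28), Cadm2 (-0.18 to 0.13), Lrrtm1 (-0.25 to 0.16), Nlgn2 (-0.31 to 0.042), Nrcam (-0.049 to 0.19), Nrxn2 (-0.16 to 0.19) and in novice against naive for Nlgn1 (-0.24 to 0.14). The replicate block, which joins libraries of the same number, called 0 genes and 0 members and left the members' medians at -0.34, 0.09 and 0.43; 10 of 18 same-numbered pairs had a correlation over 0.1 (-0.36 to 0.46), where pairing would need all 18, and 1 of 18 libraries correlated best with its own number, so the numbers were not taken to pair the samples. The Nlgn2 share difference in expert against naive ranged between -6.96 and -4.74 percentage points without 1 library. The exact p was then 0.026 or less, unadjusted, for a difference singled out after the values were seen. That difference was -5.32 in the lower class (exact p 0.057) and -7.74 in the higher (exact p 0.333, the smallest possible with 2 libraries each). FPKM values without read totals limit what can be said of low genes such as Lrrtm1. The median of the members in expert against novice was 0.25 to 0.54 without 1 library, lowest without expert 3.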
